A study of Mus musculus with 20 samples.

Results

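Carboxylesterases are serine hydrolases that cut ester, amide and thioester bonds. In the liver they clear ester drugs and other foreign compounds and hydrolyse acylglycerols and cholesteryl esters, and most of them sit in the lumen of the endoplasmic reticulum. In mice the family is divided by sequence into subfamilies that lie as tandem gene clusters. Here the mRNA levels of 10 carboxylesterase genes were read by gene symbol in liver and kidney: Ces1b, Ces1c, Ces1d, Ces1e, Ces1f, Ces1g, Ces2a, Ces2c, Ces2e and Ces3a. They are 10 of the 20 genes and pseudogenes of the family that had a row among the 57010 genes counted.

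The mice were male UM-HET3, a genetically heterogeneous stock in which littermates differ in genotype, and were 12 months old. For 28 days they received either 7c or its vehicle from minipumps placed under the skin. 7c is a cocktail of 7 small molecules used for partial chemical reprogramming: repsox, tranylcypromine, DZNep, CHIR99021, forskolin and TTNPB, each at 0.1 mg/kg per day, and valproate at 1 mg/kg per day. The vehicle was 50% DMSO and 50% PEG300, which the 7c mice received as well. Liver and kidney were sequenced from 6 mice on 7c and 4 on vehicle, which gave 20 libraries. Library totals ran from 28383359 to 34153084 counts in liver and from 27855849 to 64872451 in kidney, where the highest total belonged to 7c replicate 1. The tissues carried the markers of their labels, since the kidney genes Slc34a1 and Umod had 0 counts in all livers and the hepatocyte gene Alb was at 8.69 to 44.0 CPM (counts per 1000000 counts, TMM-normalised) in kidneys against 49310 or more in livers. The liver library of 7c replicate 6 stood apart in holding 561 CPM of 4 skeletal muscle genes, against 0.289 CPM or less in every other liver.

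All members lie on chromosome 8 (GRCm39). The 6 Ces1 members occupy chr8:93780578-94063953, a span of 283.4 kb, all on the minus strand. The 3 Ces2 members and Ces3a occupy chr8:105460630-105789243, 328.6 kb, all on the plus strand, and 11.4 Mb separate these groups. The spans and counts cover the members alone, not the other genes of the family. Coding sequences of the members were 72.1% to 90.9% identical within Ces1, where Ces1b and Ces1c were the closest pair, and 82.6% to 83.8% within Ces2. Between subfamilies identity was 58.9% to 63.7% over 27 pairs.

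The catalytic serine lies in a Gly-x-Ser-x-Gly motif. To show what the members share at the site that does the chemistry, 45 bases of each coding sequence around this codon are given from the GENCODE vM39 canonical transcripts of the C57BL/6J reference, 5′ to 3′, with the serine codon in capitals.
Ces1b: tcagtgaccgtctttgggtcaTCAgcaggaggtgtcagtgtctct
Ces1c: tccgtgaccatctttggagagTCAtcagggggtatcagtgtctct
Ces1d: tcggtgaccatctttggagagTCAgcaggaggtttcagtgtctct
Ces1e: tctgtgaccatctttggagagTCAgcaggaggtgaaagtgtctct
Ces1f: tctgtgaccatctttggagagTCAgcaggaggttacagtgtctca
Ces1g: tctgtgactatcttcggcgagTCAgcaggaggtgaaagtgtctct
Ces2a: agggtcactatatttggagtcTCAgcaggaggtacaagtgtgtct
Ces2c: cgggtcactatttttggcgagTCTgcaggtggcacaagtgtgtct
Ces2e: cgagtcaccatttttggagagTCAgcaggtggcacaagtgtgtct
Ces3a: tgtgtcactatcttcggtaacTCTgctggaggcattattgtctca
The serine codon was TCA in 8 members and TCT in Ces2c and Ces3a. Counted against Ces1c, the other Ces1 stretches differed at 4 to 9 of 45 bases, the Ces2 stretches at 11 to 14 and Ces3a at 16. The UM-HET3 mice carry alleles of several founder strains, so their own sequence may differ from the reference.

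The members also differ at the end of the protein. A glutamate-leucine end is the usual retention signal of carboxylesterases in the endoplasmic reticulum, while Ces1c is known as the esterase secreted into mouse plasma. The last 30 coding bases are given with the last 2 codons before the stop in capitals.
Ces1b: gaccctactgagcacagagaaCACAAAtga
Ces1c: gaccctactgaacacacagaaCACAAAtga
Ces1d: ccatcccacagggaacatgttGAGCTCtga
Ces1e: caactgccgacagaacacactGAGCTGtga
Ces1f: caaccccagccataccacaatGAGCTGtga
Ces1g: tcatcccatagggaacatgttGAACTGtga
Ces2a: ggttctcaggacaagcatgcaGAGCTGtag
Ces2c: gcttctcaggacaagcacaggGAGCTTtag
Ces2e: gggtctcaggagaggcacaaaGAGTTGtag
Ces3a: agaagcaggaaagttccagagGAGCTCtga
The final codons of 8 members read glutamate then leucine, in 5 spellings. Ces1b and Ces1c ended in histidine and lysine codons instead.

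Reads from such related genes can be hard to place. The share of 50-base windows of the exons found in another gene of the count table was 42.2% for Ces2c, mainly through the pseudogene Ces2d-ps, 30.7% for Ces3a through Ces3b, 22.1% for Ces2a through Gm7208 and 16.6% for Ces1c through Ces1b. For the other members it was 4.88% or less. With windows of 100 bases the highest share was 16.0%, for Ces2c. How reads with several positions were treated is not given in the sources used here, so the levels of Ces2c, Ces3a, Ces2a and Ces1c are the less certain ones.

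In vehicle liver the family spanned a wide range of levels. Levels between genes are compared as CPM per kilobase of the canonical transcript, as means over 4 mice. Ces1c stood highest at 1412 ± 169 (SD) CPM per kb, followed by Ces3a at 1118 ± 152. Ces1d, a triacylglycerol hydrolase of the endoplasmic reticulum, was at 393 ± 27.5 CPM per kb. Ces2a (254 ± 21.0), Ces1e (236 ± 38.1) and Ces1f (218 ± 10.5) formed the next group on the same scale. Ces1g, a hydrolase linked to hepatic lipid output, was at 94.8 ± 13.8, Ces1b at 78.5 ± 5.82, Ces2e at 60.4 ± 8.69 and Ces2c at 21.8 ± 6.26 CPM per kb. The ranges over the vehicle mice overlapped between Ces1c and Ces3a, Ces2a and Ces1e, Ces1e and Ces1f, and Ces1g and Ces1b, so the order within these pairs was not resolved. When all annotated exons were used as the length, Ces1d moved from the third to the fifth place.

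In vehicle kidney the order was another one. Ces1f was highest at 358 ± 26.0 CPM per kb. Ces2c, an acylglycerol and drug ester hydrolase, was at 175 ± 29.3 and Ces1d at 169 ± 13.3, with overlapping ranges. Ces1e was at 64.6 ± 13.2, Ces2e at 6.81 ± 2.43 and Ces1g at 2.96 ± 1.13 CPM per kb. Ces3a (1.06 ± 0.518), Ces1c (0.919 ± 0.231), Ces1b (0.219 ± 0.0715) and Ces2a (0.216 ± 0.144) came last. The ranges over the vehicle mice also overlapped between Ces1g and Ces3a, Ces3a and Ces1c, and Ces1b and Ces2a, and Ces3a and Ces1c changed places when all annotated exons were used as the length. Ces1c and Ces3a, the leading genes of the liver, were therefore among the 4 lowest in the kidney. The members together took 0.784% to 0.860% of all counts in vehicle livers and 0.153% to 0.203% in vehicle kidneys.

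**Figure D1:**
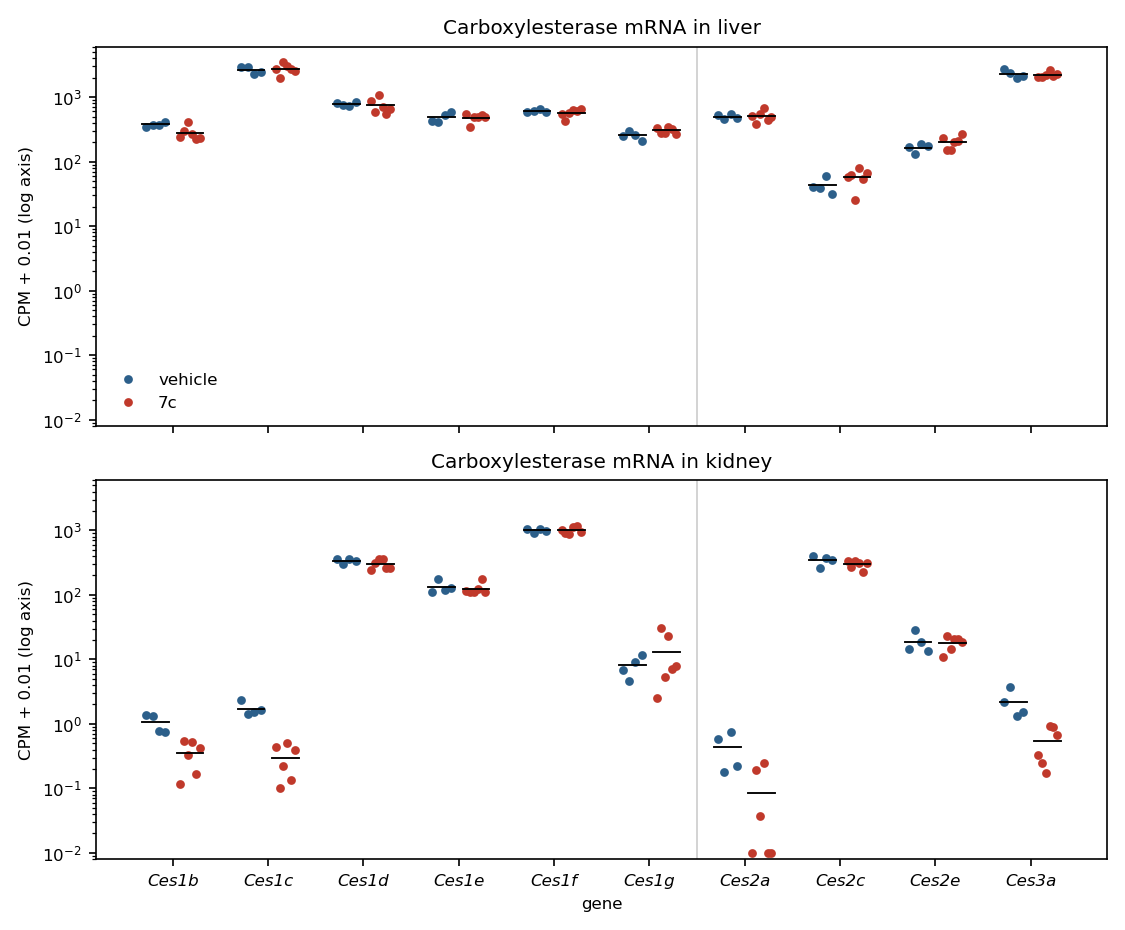
Level of each member in every sample, as TMM-normalised CPM plus 0.01 on a log axis, with liver in the upper panel, kidney in the lower panel, vehicle in blue (n = 4) and 7c in red (n = 6). Black lines are group means of the plotted values and the grey line divides Ces1 from Ces2 and Ces3 genes. All members lie above 25 CPM in every liver, whereas Ces1b, Ces1c, Ces2a and Ces3a fall below 4 CPM in every kidney.

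The same mRNAs were then set against each other between tissues, as the log2 fold change of vehicle liver over vehicle kidney from 1 joint scaling. These values were known when the genes were chosen and are given without a test. Ces1c was 11.21 (SE 0.29) higher in liver on the log2 scale, Ces2a 10.78 (SE 0.41), Ces3a 10.67 (SE 0.42) and Ces1b 9.10 (SE 0.27). Ces1g differed by 5.64 (SE 0.30), Ces2e by 3.77 (SE 0.25), Ces1e by 2.49 (SE 0.19) and Ces1d by 1.85 (SE 0.13). Ces2c went the other way, with a log2 fold change of -2.37 (SE 0.21), at 38.8 to 74.4 jointly scaled CPM in liver and 216 to 321 in kidney. Ces1f was at 718 to 796 jointly scaled CPM in liver and 742 to 852 in kidney, the only member whose tissues overlapped (log2 fold change -0.08, SE 0.13). All 4 livers were above all 4 kidneys for 8 of 10 members, where 25.1% of the 17245 genes compared did the same, and below them for Ces2c alone (28.1% of all genes). Nothing is read from these counts.

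The scaling moves every one of these values by a common amount. With library totals in place of the TMM factors, a setting chosen after seeing the data, log2 fold changes were 0.60 lower at the median over genes, and the median of all genes went from -0.06 to -0.66. The value for Ces1f then was -0.69, whereas it was -0.16 with RLE factors, so how close its level is in both tissues depends on the scaling. The other directions were kept.

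**Figure D2:**
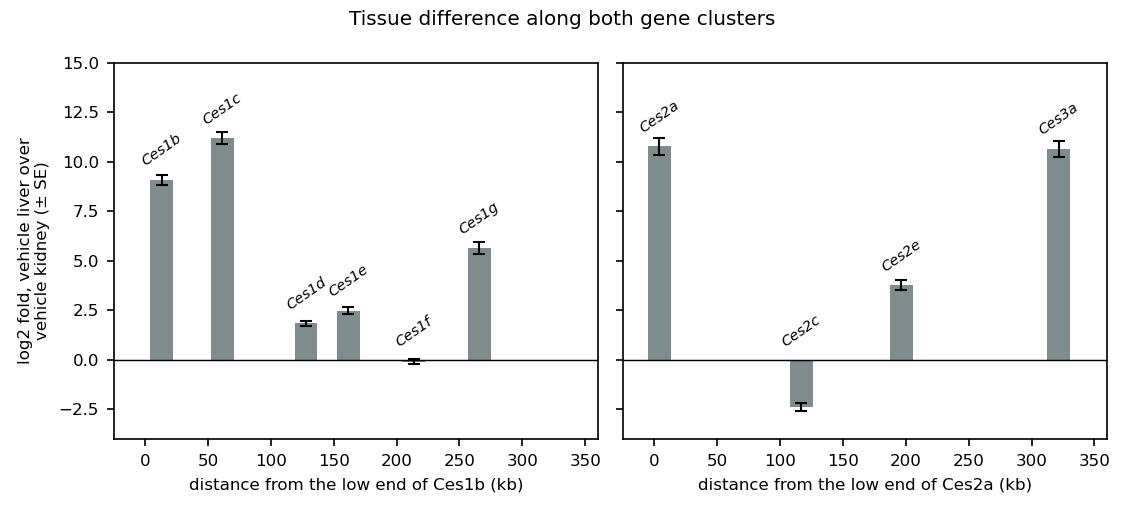
Log2 fold change of vehicle liver over vehicle kidney (bars, ± SE, 4 mice per tissue, TMM scaling) by distance from the low end of Ces1b (left) and of Ces2a (right), in kilobases. Only members are shown. In each cluster, members with bars near 10 share the array with a member near or below 0. These are Ces1f on the left and Ces2c on the right.

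Among the members, position along the clusters did not order the tissue difference. In the Ces1 cluster, from Ces1b to Ces1g, the log2 fold changes of liver over kidney ran 9.10, 11.21, 1.85, 2.49, -0.08 and 5.64. From Ces2a through Ces2c and Ces2e to Ces3a they ran 10.78, -2.37, 3.77 and 10.67. Of the other family genes, Ces3b, which shares exon windows with Ces3a, was liver-rich by 11.57 (SE 0.32) on the log2 scale, and Ces2g by 3.34 (SE 0.23). Ces2b and Ces2h were kidney-rich, with log2 fold changes of -4.42 (SE 0.49) and -3.57 (SE 0.46).

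In liver, 7c left no member past the threshold. By edgeR's quasi-likelihood test with Benjamini-Hochberg adjustment over 15012 genes, 0 of 10 members had an adjusted p under 0.05, against 0.00666% of all genes. The adjusted p was 1.00 for each. Unadjusted, 1 member (Ces1b) was under 0.05, against 3.76% of all genes. DESeq2, limma-voom and edgeR's likelihood ratio test also called 0 of 10. The log2 fold change was above 0 in 5 members and below 0 in 5, where 49.6% of all genes were below. In 0 of 10 did the groups separate without overlap (0.719% of all genes).

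Ces1b had the lowest unadjusted p. Its liver level was 350, 375, 369 and 416 CPM in the vehicle mice and had a lowest, median and highest value of 227, 257 and 405 CPM on 7c. 5 of the 6 mice on 7c were below every vehicle mouse, and replicate 3 was within the vehicle range. The log2 fold change was -0.43 (SE 0.15), with an unadjusted p of 0.0120 and an adjusted p of 1.00 by edgeR. Without 7c replicate 3 the log2 fold change was -0.57 and the adjusted p fell to 0.449, the lowest for any member under any setting tried.

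Ces1c, the secreted esterase, was at 2906, 2919, 2319 and 2421 CPM in vehicle livers. On 7c the lowest, median and highest values were 2017, 2713 and 3500 CPM. The 7c range enclosed the vehicle range, and the log2 fold change was 0.06 (SE 0.14). Ces3a, the other abundant member, was at 2711, 2335, 1978 and 2167 CPM on vehicle and at 2023, 2166 and 2657 CPM (lowest, median, highest) on 7c. All 6 of its 7c values were inside the vehicle range, with a log2 fold change of -0.04 (SE 0.11).

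The lipid hydrolases of the Ces1 cluster overlapped as well. Ces1d was at 822, 768, 719 and 841 CPM on vehicle, and on 7c it ranged from 545 to 1073 CPM around a median of 685. The spread on 7c was wider (SD 198 against 55.1 CPM), and the log2 fold change was -0.08 (SE 0.16). Ces1f was at 590, 616, 647 and 583 CPM on vehicle and at 420, 587 and 662 CPM (lowest, median, highest) on 7c, a log2 fold change of -0.08 (SE 0.12). Ces1e, known as egasyn for holding beta-glucuronidase in the endoplasmic reticulum, was at 429, 418, 528 and 581 CPM on vehicle and at 342, 490 and 552 CPM on 7c, a log2 fold change of -0.02 (SE 0.14). Ces1g was at 252, 304, 262 and 213 CPM on vehicle and at 267, 299 and 351 CPM on 7c. 3 of the 6 livers on 7c exceeded the vehicle range for Ces1g, at a log2 fold change of 0.24 (SE 0.12) and an adjusted p of 1.00 by edgeR.

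All Ces2 members had a log2 fold change above 0 in liver, with none past the threshold. Ces2c was at 40.8, 39.1, 60.4 and 31.5 CPM on vehicle and at 25.3, 59.7 and 79.6 CPM (lowest, median, highest) on 7c, the most variable member (coefficient of variation 32.8% over 10 livers, log2 fold change 0.41, SE 0.25). Ces2e was at 167, 133, 190 and 172 CPM on vehicle and at 150, 204 and 270 CPM on 7c, with 4 of 6 mice on 7c above the vehicle range (log2 fold change 0.29, SE 0.16). Ces2a was at 531, 455, 540 and 476 CPM on vehicle and at 377, 507 and 675 CPM on 7c (log2 fold change 0.02, SE 0.14). Ces2g, a further gene of the subfamily, had a log2 fold change of 0.33 (SE 0.13) and an unadjusted p of 0.0243 by edgeR, with an adjusted p of 1.00. The log2 fold change of Ces3b was 0.08 (SE 0.16). Ces1a, Ces2b, Ces2h, Ces4a and Ces2d-ps were below 3 CPM in every liver, with log2 fold changes of -0.83 (SE 0.61), 0.50 (SE 0.85), 0.82 (SE 0.50), -0.26 (SE 0.40) and -0.44 (SE 0.98). Hepatocyte markers summed to 97212 to 119328 CPM in vehicle livers and to 97706 to 129938 CPM in 7c livers, and red blood cell genes to 417 to 562 and 384 to 1213 CPM. Their part in the liver values was not tested. Without the liver that held muscle mRNA, 0 of 10 members were called and their log2 fold changes ran from -0.38 (Ces1b) to 0.37 (Ces2c).

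**Figure D3:**
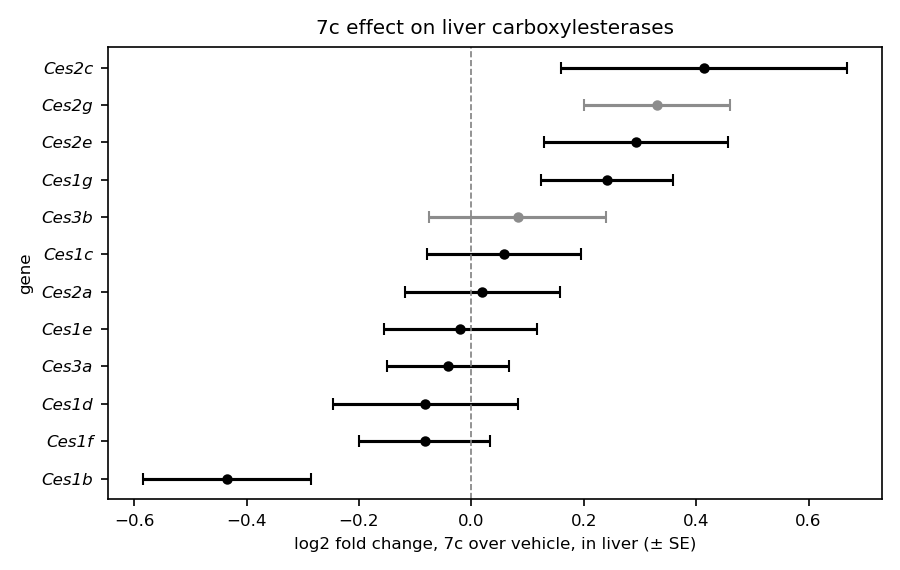
Log2 fold change of 7c over vehicle in liver (points, ± SE, 6 against 4 mice) for the members (black) and for Ces2g and Ces3b (grey), the other family genes above 10 CPM. Ces1b at -0.43 and Ces2c at 0.41 are the extremes, and no gene shown passed the adjusted threshold.

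Genes that act beside the carboxylesterases were read in the same way. The lists, fixed with earlier results known, held 12 neutral lipid hydrolases, 10 genes of very low density lipoprotein assembly, 12 other hydrolases of drug metabolism and 12 transcription regulators of drug-metabolism genes. All of them passed the filter in liver, and 0 of each list had an adjusted p under 0.05 by edgeR, where 0.00666% of all genes did, so nothing is read from this count. None had an unadjusted p under 0.05, against 3.76% of all genes. Their median log2 fold changes were 0.03, 0.04, -0.04 and -0.03, against 0.00 over all genes. Aadac, a microsomal lipid esterase and the most abundant of the first list, was at 506 ± 135 CPM on 7c (SD, n = 6) and 423 ± 62.4 on vehicle (n = 4). Lipa, the lysosomal acid lipase, was at 291 ± 24.8 and 320 ± 34.7 CPM, and Lipc, hepatic lipase, at 205 ± 24.6 and 217 ± 20.5 CPM. Apob, the structural protein of these lipoproteins, was at 3981 ± 397 and 4407 ± 344 CPM, Apoc3 at 1745 ± 249 and 1626 ± 94.8, and P4hb, a subunit of the triglyceride transfer complex, at 1116 ± 76.2 and 1007 ± 115. Of the other hydrolases, the soluble epoxide hydrolase Ephx2 was at 765 ± 80.9 and 866 ± 116 CPM, the paraoxonase Pon1 at 781 ± 94.1 and 762 ± 112, and Ephx1 at 518 ± 94.2 and 515 ± 98.8. Of the regulators, Hnf4a was at 571 ± 86.6 and 604 ± 103 CPM, Rxra at 422 ± 57.3 and 442 ± 20.4, and Cebpa at 352 ± 66.7 and 359 ± 62.1. For each gene of these lists the ranges of 7c and vehicle livers overlapped, and 0.719% of all genes had ranges that did not. In kidney, 12, 10, 10 and 11 genes of the lists passed the filter, edgeR called 0 of them, as of all genes in kidney, and the medians were 0.12, 0.01, 0.00 and -0.06. The most abundant there were the hydrolases Lipa (324 ± 44.1 on 7c and 387 ± 62.7 CPM on vehicle), Lpl (332 ± 93.6 and 308 ± 95.4) and Nceh1 (201 ± 17.9 and 219 ± 27.3), and of lipoprotein assembly P4hb (749 ± 49.7 and 709 ± 30.7 CPM), Mia2 (270 ± 55.4 and 293 ± 60.4) and Surf4 (277 ± 49.6 and 265 ± 28.3). Ephx2 (568 ± 40.4 and 602 ± 99.0 CPM), Esd (512 ± 66.5 and 513 ± 149) and Bphl (381 ± 52.3 and 381 ± 93.4) led the other hydrolases, and Hnf4a (990 ± 114 and 1008 ± 48.8 CPM), Rxra (178 ± 10.3 and 186 ± 17.8) and Nr1h4 (152 ± 19.7 and 156 ± 39.7) the regulators, again with overlapping ranges.

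In kidney, 6 members were expressed above 2 CPM in every mouse and had overlapping groups. The other 4 were below 4 CPM in every mouse and had lower means on 7c. The family was chosen by measured values, namely the kidney difference of Ces1c between 7c and vehicle and the liver and kidney levels of the members, so this comparison is a description without a test. 9 of 10 members passed the filter in kidney. Over all 17749 genes tested there, edgeR's quasi-likelihood test called 0 (0%), with 2.61% under an unadjusted p of 0.05, while DESeq2 called 18, the likelihood ratio test 14 and limma-voom 2.

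Of the low group, Ces1c was at 2.35, 1.39, 1.52 and 1.61 CPM in vehicle kidneys, from 46 to 90 counts. On 7c it was at 0.424, 0.0900, 0.214, 0.492, 0.125 and 0.384 CPM, from 3 to 28 counts. Every 7c kidney was below every vehicle kidney, at a log2 fold change of -2.53 (SE 0.44) that leaving out any 1 mouse kept between -2.73 and -2.35. Ces3a was at 2.17, 3.68, 1.31 and 1.54 CPM on vehicle and at 0.318, 0.240, 0.160, 0.932, 0.876 and 0.672 CPM on 7c, a log2 fold change of -2.03 (SE 0.49). Ces1b was at 1.36, 1.34, 0.776 and 0.733 CPM on vehicle and at 0.106, 0.540, 0.321, 0.518, 0.157 and 0.408 CPM on 7c, a log2 fold change of -1.63 (SE 0.47). Ces3a and Ces1b were thus also lower in all 6 kidneys on 7c than in the 4 on vehicle. Such a complete separation with 7c below was found in 3 of 10 members and in 0.406% of all genes tested, a count from which nothing is read because Ces1c was known beforehand.

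Ces2a did not pass the filter in kidney. It had 22, 6, 28 and 6 counts on vehicle and 0, 6, 1, 9, 0 and 0 on 7c. In the 3 libraries at 0, a count of 0 allows up to 0.0454 to 0.0939 CPM (3 counts of the library, counting error only). The groups overlapped for Ces2a. Ces3b, which failed the filter too, had 6 to 14 counts on vehicle and 0 to 10 on 7c.

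**Figure D4:**
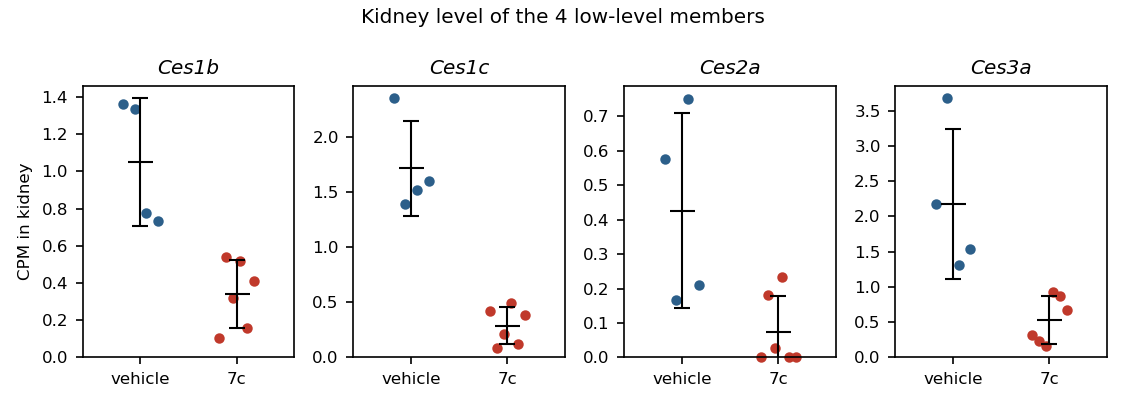
Kidney level in CPM of the 4 members below 4 CPM in every kidney, for each vehicle mouse (blue, n = 4) and each mouse on 7c (red, n = 6), with group mean and SD in black and an own axis from 0 for each gene. Groups separate for Ces1b, Ces1c and Ces3a and overlap for Ces2a.

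The members that the kidney expressed strongly did not separate. Ces1f was at 1059, 908, 1057 and 974 CPM on vehicle and at 886, 983 and 1186 CPM (lowest, median, highest) on 7c, a log2 fold change of 0.01 (SE 0.11). It was the least variable member of the kidney, with a coefficient of variation of 9.94% over 10 mice. Ces2c was at 400, 264, 366 and 348 CPM on vehicle and at 230, 315 and 337 CPM on 7c (log2 fold change -0.20, SE 0.14). Ces1d was at 357, 304, 362 and 332 CPM on vehicle and at 239, 287 and 366 CPM on 7c, with 3 of 6 below the vehicle range (log2 fold change -0.18, SE 0.14). Ces1e was at 112, 174, 121 and 129 CPM on vehicle and at 109, 112 and 178 CPM on 7c (log2 fold change -0.11, SE 0.17). Ces2e was at 14.5, 28.1, 18.7 and 13.5 CPM on vehicle and at 10.7, 19.7 and 23.3 CPM on 7c (log2 fold change -0.05, SE 0.24).

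Ces1g was the most uneven of the kidney-expressed members. It was at 6.80, 4.54, 9.20 and 11.7 CPM on vehicle, and on 7c at 2.47, 31.1, 5.34, 23.2, 6.98 and 7.85 CPM. Mice 2 and 4 on 7c were above every vehicle mouse and mouse 1 was below. The log2 fold change of 0.67 (SE 0.60) fell to 0.19 without 7c replicate 2. Of the family genes outside the members that passed the filter in kidney, Ces1h, Ces2g, Ces2h and Ces2d-ps had log2 fold changes of 0.09 (SE 0.68), 0.03 (SE 0.29), -0.04 (SE 0.25) and -0.16 (SE 0.23), and Ces2f one of -1.15 (SE 0.63) at 2 to 20 counts. The kidney-rich Ces2b was at 6.88 ± 1.62 CPM on 7c and 10.8 ± 3.56 on vehicle, with overlapping ranges.

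The 4 low members are genes of the liver, so their kidney level was set against other liver mRNAs. In bulk tissue, fewer cells of a type and less RNA per cell cannot be told apart. The mean kidney CPM was expressed as percent of the mean vehicle liver CPM, each tissue scaled on its own. On this scale vehicle kidney held 0.0651% of the liver level for Ces1c, 0.0850% for Ces2a, 0.0946% for Ces3a and 0.279% for Ces1b. In 7c kidney the shares were 0.0109%, 0.0146%, 0.0232% and 0.0905%. Ces3b, not a member, was at 0.0495% and 0.0110%. Among these 5 genes the vehicle share was 3.08 to 5.97 times the 7c share, with a median of 4.48.

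Hepatocyte markers lay in the same range. Of 14 such genes, 13 were under 1% of the liver level in vehicle kidney, with a median of 0.0640%, and their median in 7c kidney was 0.0291%. The ratio of vehicle to 7c had a median of 2.11 and a range of 0.821 to 8.26. Alb, serum albumin, was at 0.0615% in vehicle and 0.0291% in 7c kidney, and Ahsg, fetuin-A, at 0.0515% and 0.0112%. Cps1, the first enzyme of the urea cycle, was at 0.0360% and 0.00435%, and its groups did not overlap. Fga, Serpinc1, Ttr and Apoh had shares of 0.442%, 0.267%, 3.50% and 0.926% in vehicle kidney and of 0.431%, 0.247%, 3.30% and 1.13% in 7c kidney.

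Counted by gene, 12 of the 13 hepatocyte markers that passed the filter in kidney had a log2 fold change below 0 (51.0% of all genes). Of the 13, 1 (Cps1) had all 7c kidneys below all vehicle kidneys, against 0.406% of all genes. Their median log2 fold change was -0.95, against -0.01 over all genes. The summed level of all 14 hepatocyte markers was 266 to 387 CPM on vehicle and 144 to 376 CPM on 7c. For the 10 of the 14 under 0.3% of the liver level in vehicle kidney it was 43.7 to 86.5 CPM on vehicle and 20.8 to 50.5 CPM on 7c. This cut was not planned and used the same vehicle kidney values, so nothing is read from the second sum. No hepatocyte marker was at 0 in a whole group of kidneys. Adipocyte markers had the other direction, with log2 fold changes above 0 in the 8 of 10 that passed the filter and sums of 62.0 to 96.6 CPM on vehicle and 81.2 to 240 CPM on 7c. Fabp4 (mean 38.5 CPM) and Car3 (31.9 CPM) held most of the vehicle sum, and on 7c they were at 65.8 and 47.9 CPM. Adipoq was at 1.32 CPM on vehicle and 5.49 CPM on 7c, and Plin1 at 0.986 and 5.56 CPM. The brown fat gene Ucp1 was at 0 in all vehicle kidneys and reached 31.8 CPM on 7c. Red blood cell genes summed to 279 to 1204 CPM on vehicle and 426 to 2101 CPM on 7c. The part of these mRNAs in the lower level of Ces1b, Ces1c, Ces2a and Ces3a was not tested. Proximal tubule markers summed to 40582 to 67840 CPM on vehicle and 42037 to 75992 CPM on 7c.

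**Figure D5:**
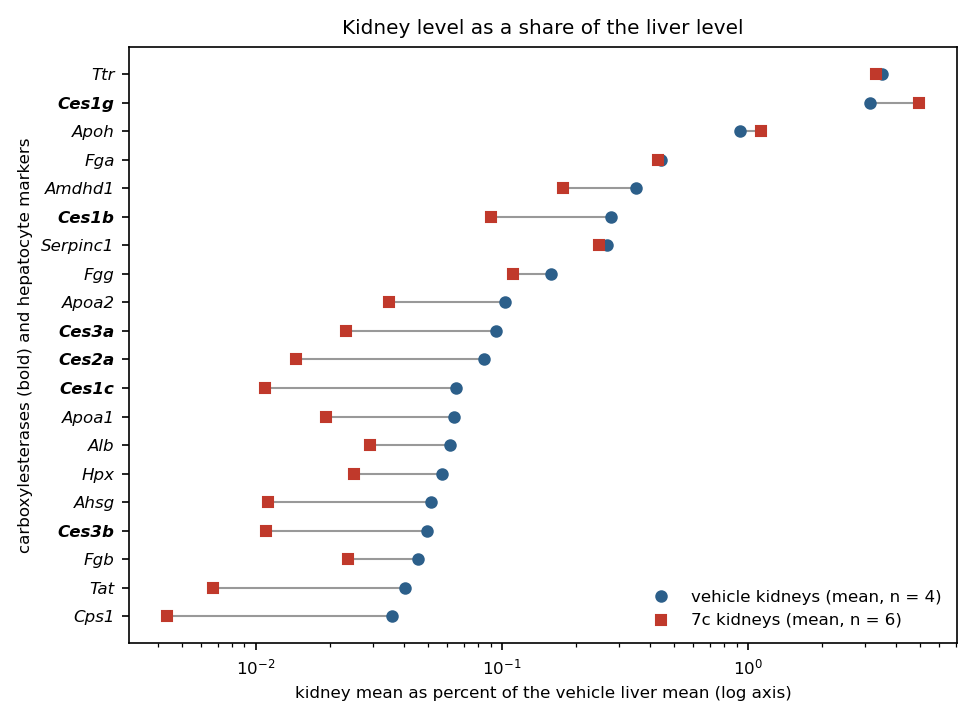
Mean kidney level as percent of the mean vehicle liver level (log axis) for carboxylesterases (bold) and hepatocyte markers under 5%, with vehicle kidneys as blue circles (n = 4) and 7c kidneys as red squares (n = 6). Ces1c, Ces2a, Ces3a and Ces3b lie among the hepatocyte markers near 0.05% to 0.1% in vehicle, with the 7c point to the left, whereas Ttr, Apoh, Fga and Serpinc1 have both points close together.

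Within a tissue the members did not vary as 1 unit. Over the 10 livers, Pearson correlations of log2 CPM between members ran from -0.76 for Ces1b with Ces2e to 0.62 for Ces1e with Ces1f. Over the 10 kidneys they ran from -0.68 for Ces1e with Ces2c to 0.79 for Ces1c with Ces3a, and Ces1b with Ces1c gave 0.71. The points share libraries and, for the kidney genes of few counts, their depth, so these are descriptions. They also pool 7c and vehicle mice, and the kidney levels of Ces1b, Ces1c and Ces3a separate by treatment, a difference that enters their correlations.

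The genes of most similar pattern over the 10 samples of a tissue, 7c and vehicle pooled, were also listed. For Ces1b, Ces1c and Ces3a in kidney this likeness includes the difference between the treatment groups, which for Ces1c was used to choose the family. For Ces1c in kidney they were Mrap2 (r = 0.950), the urate oxidase gene Uox (0.937) and C1ql3 (0.927). For Ces1b in kidney they were the liver cytochrome Cyp2c29 (0.944), Ahsg (0.915) and Gm5900 (0.889), and for Ces3a in kidney Zfp386 (0.976), Mug1 (0.926) and Siglecg (0.924). Mean levels of these kidney matches were low, from 0.458 CPM (Uox) to 1.93 CPM (Gm5900), except for Zfp386 at 14.7 CPM. In liver, Ces1f was most like Tdo2 (0.915), which starts tryptophan breakdown, Ugt2b36 (0.913) and Ugt1a6a (0.898). Ces1d in liver was most like Eef1b2 (0.956), Gm6969 (0.940) and the ribosomal protein gene Rpl22 (0.909), and Ces1g most like Elf4 (0.977), Prlr (0.934) and Sult1b1 (0.912). Elf4 had a mean of only 1.53 CPM in liver. The best match of any member had r of 0.871 to 0.977 in liver and 0.883 to 0.981 in kidney, each the highest of all tested genes over 10 samples.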

How the data were processed

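RNA of flash-frozen liver and kidney was measured by stranded sequencing of polyadenylated mRNA. The authors aligned reads to GRCm39 with STAR 2.7.11b and deposited raw counts per gene from featureCounts 2.0.6. Annotation release, strand setting and multimapping treatment are not given in the sources used here. All 20 columns were mapped to samples by their labels, with 0 columns left over. Symbols and sequences came from GENCODE vM39 by Ensembl identifier.

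A gene was tested in a tissue if 50% or more of its samples had 10 counts or more. edgeR 4.0.16 (R 4.3.3) was used with TMM factors, a model of treatment alone, the quasi-likelihood test and a threshold of 0.05 after Benjamini-Hochberg adjustment over all genes, after a test on simulated counts. CPM are TMM-normalised within a tissue, and log2 CPM used a prior count of 2. Standard errors derive from the same fit. Alternatives were RLE factors, DESeq2 1.42.0, limma-voom (limma 3.58.1), the likelihood ratio test, other filters, the replicate number as a block and leaving out each mouse. Alignments used Biopython 1.88. The members, the gene and marker lists and the rule for like genes (the 3 highest Pearson correlations) were chosen with earlier results of these data known. The other lists were described by their 3 most abundant genes in a tissue.

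The labels number the mice per treatment, and no source used here says that a number marks 1 mouse across tissues. Over 14163 genes, deviations of liver and kidney with the same number correlated at 0.0115 to 0.259, above 0.1 in 7 of 10 pairs, and 8 of 10 correlated best with their own number. The criterion for pairing was a correlation above 0.1 in every pair, so the numbers were not used to pair tissues, and whether they mark the same mouse is not known. Depth limits genes of few counts, for which counts are given.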

Additional observations from a re-analysis of the deposited data

Results flagged for a closer look

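In 66 groups of 4 or 6 samples, 3 values lay far from the rest of their group by Dixon's criterion, where chance gives about 1 in 20 groups. Ces1e in liver was 342 CPM in 7c replicate 2, below the 487 to 552 CPM of the other 5 mice. Ces1e in kidney was 178 CPM in 7c replicate 5, above the 109 to 125 CPM of the other 5. Ces4a in liver was 0.682 CPM in vehicle replicate 3, below 2.06 to 2.31 CPM in the other 3.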

How the results depend on the processing

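No carboxylesterase was called in liver under any of the 17 alternatives. The number of genes called in liver was 1, and it became 6 with DESeq2, 7 with the likelihood ratio test, 4 without a filter, 2 with filterByExpr, 0 with the replicate block and 0 to 2 when 1 mouse was left out (0 without vehicle replicate 4, 2 without 7c replicate 4 or vehicle replicate 2). In kidney 0 became 18 with DESeq2, 2 with limma-voom, 14 with the likelihood ratio test, 3 without a filter and 0 to 3 without 1 mouse (3 without 7c replicate 5, 1 without 7c replicate 6 or vehicle replicate 2), and the replicate block gave 0. Vehicle liver against vehicle kidney gave 9215 genes, 8744 with the replicate block, 7107 to 8513 without 1 mouse, 9164 to 9764 under the other planned settings and 10559 with library totals, a setting chosen after seeing the data. The cause of these shifts was not tested. Signs turned for these uncalled liver log2 fold changes: Ces2b (0.50) with limma-voom (-0.0975), Ces1d with the replicate block (0.0139), and without 1 mouse Ces1e (-0.0852 to 0.0745), Ces3b (-0.0378 to 0.191), Ces1c (-0.0188 to 0.134), Ces2a (-0.0785 to 0.0928) and Ces3a (-0.104 to 0.0472). In kidney, where members have no test, signs turned without 1 mouse for Ces1e (-0.237 to 0.0471), Ces1f (-0.0389 to 0.0467), Ces2e (-0.173 to 0.225), Ces1h (-0.278 to 0.338), Ces2g (-0.168 to 0.301) and Ces2h (-0.249 to 0.336), and with limma-voom or the replicate block for Ces1f, Ces1h, Ces2g and Ces2h. The block called no carboxylesterase in liver. Mice on 7c and vehicle share only a number, with correlations of -0.05 to 0.21 and 1 of 8 above 0.1. The planned correlation of liver and kidney levels over mice was not run, nor its alternatives, since the numbers did not meet the criterion for pairing the tissues, although 8 of 10 pairs correlated best with their own number. Depth limits Ces1b, Ces1c, Ces2a and Ces3a in kidney, where 7c libraries held 0 to 36 counts.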
